A study of Mus musculus with 12 samples.

Results

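The genes that encode the variable (V) segments of the antibody heavy chain (*Ighv*), κ light chain (*Igkv*) and λ light chain (*Iglv*) were examined in cultured splenic B cells. A gene was chosen by its annotation and its counts: it had to be an IG_V_gene of GENCODE with a symbol starting Ighv, Igkv or Iglv and at least 100 counts summed over the 12 libraries. The rule kept 162 of 216 such genes, out of 55536 features in the table. Of the 113 *Ighv* genes on chromosome 12, 81 were kept. Of the 100 *Igkv* genes on chromosome 6, 78 were kept, and all 3 *Iglv* genes on chromosome 16 were kept. Just inside the limit were *Igkv12-38* with 103 counts, *Igkv9-129* with 104 and *Igkv4-69* with 105. Just outside it were *Ighv8-2* and *Ighv1-11* with 90 counts each and *Ighv1-31* with 86. Counts in one deep library, the LPS-BAFF-TGFβ culture of control mouse 1, made up 43.7% of all member counts, and 143 of the 162 genes reach 100 counts without it.

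A developing B cell joins 1 V segment to a D and a J segment at the heavy chain locus, and 1 V segment to a J segment at a light chain locus, so each cell transcribes mainly the V segments it has joined. A mature population therefore carries a mixture of V transcripts whose proportions, called usage here, describe the cells present as well as their antibody RNA output. In bulk RNA, fewer cells with a segment and less RNA per cell cannot be told apart. In mice most B cells carry κ chains and a minority λ chains. Some segments, such as *Ighv11-2*, *Ighv12-3* and *Igkv14-126*, are known from B-1 cells, an innate-like B cell type.

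The 12 libraries came from 3 control and 3 Pdap1-deficient C57BL/6 mice, and B cells from every spleen were kept for 48 h either in LPS plus IL-4 (switching to IgG1) or in LPS plus BAFF and TGFβ (switching to IgG2b). Pdap1-deficient mice carried loxP sites around exon 2 of both *Pdap1* copies, which Cre deletes, and controls and Pdap1-deficient mice both carried Cre. The B cells were taken from the spleen by removing cells with CD43, a step that also removes most B-1 and plasma cells. The study's methods give an age range over all its mice, with groups matched for age and both sexes used, and the age of each of these 6 mice is not given in the sources used here. The labels name the CH12 cell line for every sample, whereas the title and methods describe primary splenic B cells. CH12 is a lymphoma line with a single heavy and light chain. That all 162 V genes had counts over the libraries together follows from the rule that chose them. In any one library at most 5 of them were at 0, and the 5 largest *Ighv* segments held at most 28.5% of *Ighv* usage.

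Library totals were between 4579793 and 69500640 counts, and the deep library was the only one above 15869143. V genes took a small part of them, between 2523 and 19077 counts per library outside the deep library and 62051 in it. Chi-square comparisons of library pairs within groups, between 7.07 and 87.1 per gene, marked none as a copy of another. *Pdap1* was between 91.4 and 97.8 CPM (counts relative to the library total, scaled by the trimmed mean of M values) in control mice with LPS-IL-4 and between 23.3 and 29.9 in Pdap1-deficient mice. Under LPS-BAFF-TGFβ it reached 199, 80.3 and 100 CPM in control mice 1 to 3 and between 23.0 and 26.4 in Pdap1-deficient mice. The 6 B cell markers summed to between 3093 and 3460 CPM with LPS-IL-4 and to between 2172 and 2425 CPM with LPS-BAFF-TGFβ. Pdap1-deficient mouse 2 stood apart in myeloid cell markers, whose 6 genes summed to 233 CPM with LPS-IL-4 and, in the other culture, to 469. Pdap1-deficient mouse 3 had 16.5 and 55.1, and the libraries of the other 4 mice had between 0.856 and 9.63. T cell markers were also highest in Pdap1-deficient mouse 2, at 19.1 and 8.47 CPM over 6 genes.

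The V segments with the largest usage are shown by the last 90 bases of their second exon, 5′ to 3′ on the coding strand, which end near the point of joining to D or J. Capitals mark the in-frame letters TANTNNTGN, codons for the tyrosine, a further residue and the conserved cysteine before the junction, searched on the coding strand alone. Where overlapping codons matched, the first was marked. The letters were present in the last 90 bases of 208 of the 216 genes, or 96.3%, and in 160 of the 162 members. Sequences and positions are from GENCODE M21 on GRCm38, and all 5 *Ighv* stretches lie on the minus strand of chromosome 12, at chr12:114788372-114788461, chr12:114140692-114140781, chr12:114288152-114288241, chr12:115952538-115952627 and chr12:114682632-114682721 in the order printed.
Ighv1-26: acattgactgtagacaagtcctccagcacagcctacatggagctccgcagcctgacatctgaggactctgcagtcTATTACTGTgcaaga
Ighv9-3: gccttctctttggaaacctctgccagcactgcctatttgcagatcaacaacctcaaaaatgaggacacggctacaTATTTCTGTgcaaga
Ighv3-6: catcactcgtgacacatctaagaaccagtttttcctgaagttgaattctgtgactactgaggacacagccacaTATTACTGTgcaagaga
Ighv1-82: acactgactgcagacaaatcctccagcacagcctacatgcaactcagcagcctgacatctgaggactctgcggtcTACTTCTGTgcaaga
Ighv1-18: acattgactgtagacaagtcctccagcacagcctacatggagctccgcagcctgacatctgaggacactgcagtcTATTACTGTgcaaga

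The 5 largest *Igkv* segments are printed in the same way. *Igkv10-96* lies on the minus strand at chr6:68631963-68632052 and the others on the plus strand, at chr6:68121738-68121827, chr6:67610419-67610508, chr6:68271178-68271267 and chr6:68256780-68256869. *Igkv1-117* and *Igkv1-110* have an identity of 97.5% over the *Igkv1-110* transcript, and *Ighv1-26* and *Ighv1-18* an identity of 96.9%. Reads that fall where such pairs are alike could be split or lost in counting, so the separate values of close pairs are uncertain.
Igkv10-96: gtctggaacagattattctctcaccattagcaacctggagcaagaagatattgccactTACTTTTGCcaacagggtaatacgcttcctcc
Igkv1-117: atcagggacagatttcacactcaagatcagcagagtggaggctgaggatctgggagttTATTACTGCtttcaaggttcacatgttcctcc
Igkv1-135: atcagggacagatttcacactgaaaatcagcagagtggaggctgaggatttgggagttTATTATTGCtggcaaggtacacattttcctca
Igkv1-110: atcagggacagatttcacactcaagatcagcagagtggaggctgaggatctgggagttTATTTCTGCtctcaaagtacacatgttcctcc
Igkv14-111: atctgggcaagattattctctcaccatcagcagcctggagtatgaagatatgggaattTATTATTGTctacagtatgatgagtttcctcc

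The 3 *Iglv* segments, which carry the λ result described later, lie on the minus strand of chromosome 16 at chr16:19085017-19085106, chr16:19260401-19260490 and chr16:19241207-19241296. *Iglv2* was 96.4% identical to *Iglv1* over its length, while no other V gene aligned to *Iglv3* at the limit used. The searched letters are absent from the *Iglv3* stretch.
Iglv1: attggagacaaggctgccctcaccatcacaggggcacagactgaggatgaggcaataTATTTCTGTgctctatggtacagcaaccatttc
Iglv2: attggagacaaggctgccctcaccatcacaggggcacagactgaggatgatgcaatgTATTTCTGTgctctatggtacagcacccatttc
Iglv3: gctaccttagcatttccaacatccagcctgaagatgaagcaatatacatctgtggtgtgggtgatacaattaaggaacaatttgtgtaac

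Usage was first asked within each chain, as the share of a segment in the sum of its chain after each count was divided by exon length. *Ighv1-26* was the largest *Ighv* segment in 12 of 12 libraries, with a share between 8.14% and 9.63% and a median of 9.05%. *Ighv9-3* followed with a median of 5.09% (3.81% to 6.80%), and *Ighv3-6* with 4.94% (2.74% to 6.27%). *Ighv1-82* and *Ighv1-18* had medians of 3.58% and 3.25%. The ranges of *Ighv9-3* and *Ighv3-6* overlap over most of their width, so their order is not fixed, whereas *Ighv1-26* stayed above every other segment.

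Among the κ segments *Igkv10-96* had the largest median share, 7.02% (6.13% to 8.92%), and led in 7 of 12 libraries. *Igkv1-117* had a median of 6.12% (3.34% to 8.95%) and led in 3, and *Igkv1-135* had 5.49% (4.26% to 7.69%) and led in 2. *Igkv1-110* had 4.89% and *Igkv14-111* 4.04%. The ranges of the first 4 overlap, so no single κ segment was largest throughout. Pdap1-deficient mouse 2 had the highest *Igkv1-117* share of its stimulation in both cultures, 8.95% and 7.55%.

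**Figure D1:**
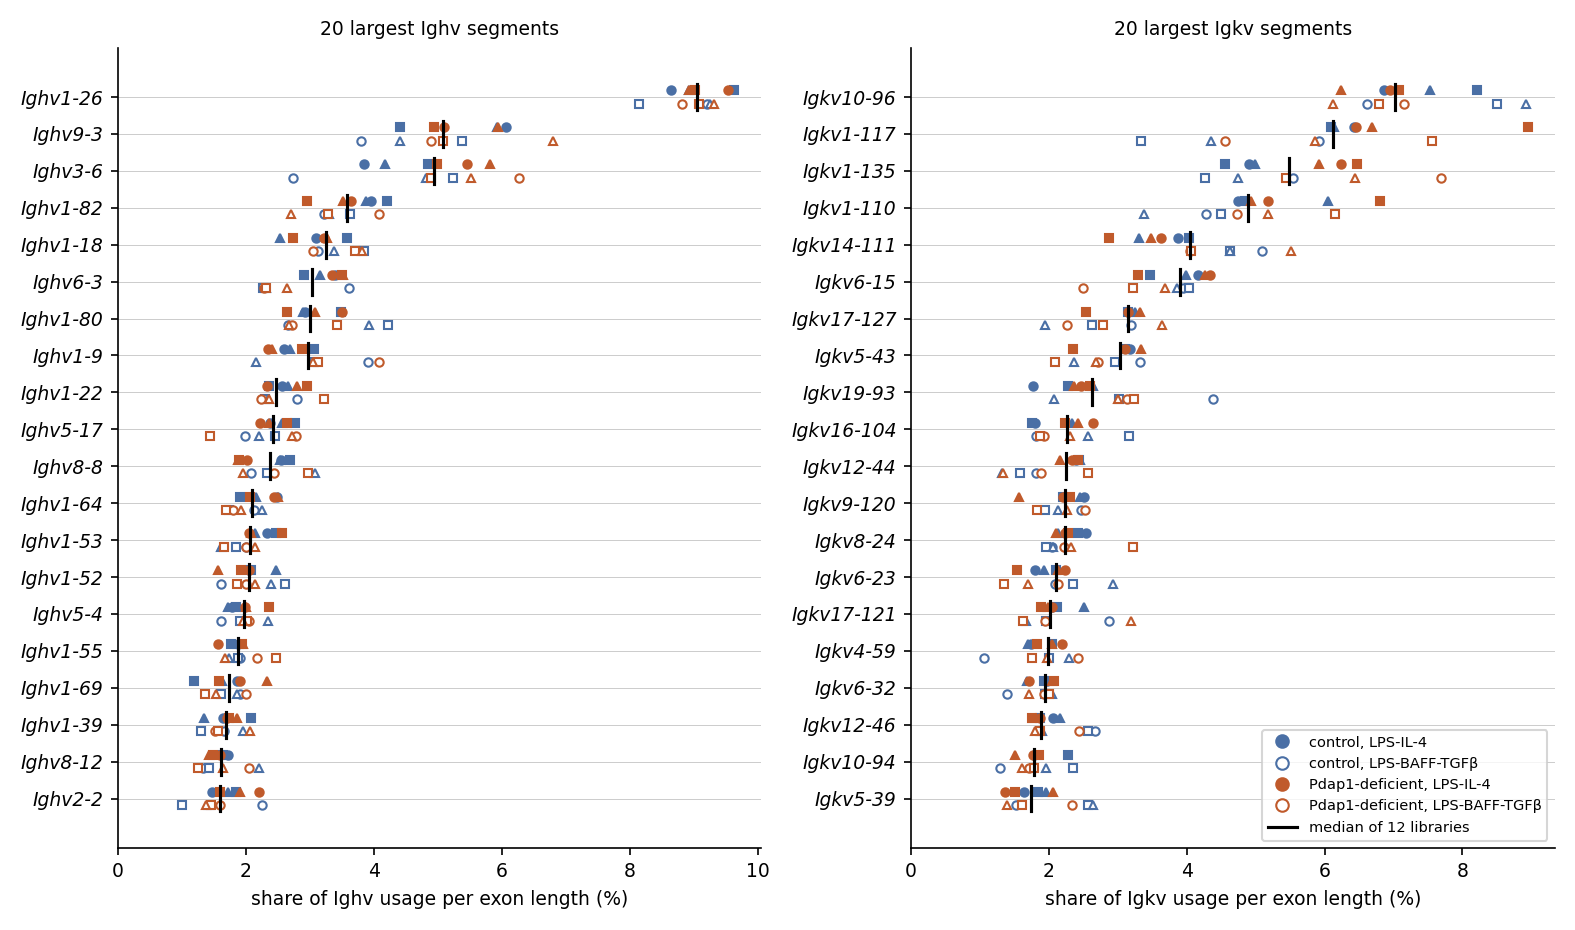
Share of chain usage (%, x axis) of the 20 largest *Ighv* and *Igkv* segments in each of the 12 libraries. Filled marks are LPS-IL-4 and open marks LPS-BAFF-TGFβ cultures, circles, squares and triangles are mice 1, 2 and 3, and the black line is the median. *Ighv1-26*, between 8.14% and 9.63%, stands clear of the other *Ighv* segments, and the leading *Igkv* segments overlap.

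Usage was spread over many segments. The 10 largest segments of a library held between 37.3% and 41.8% of *Ighv* usage and between 40.5% and 45.4% of *Igkv* usage. The Shannon evenness, which is 1 when all segments are used equally, was between 0.891 and 0.915 for *Ighv* and between 0.879 and 0.899 for *Igkv*. The effective number of segments (inverse Simpson number, corrected for counting) was between 35.8 and 40.5 of 81 for *Ighv* and between 28.7 and 36.9 of 78 for *Igkv*. The lowest *Igkv* evenness and effective number were both those of the LPS-IL-4 culture of Pdap1-deficient mouse 2.

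Evenness was compared between genotypes and stimulations to ask whether cultures of one kind rested on fewer segments. *Ighv* evenness with LPS-IL-4 was 0.899 ± 0.00609 (SD, n = 3) in control and 0.896 ± 0.00637 in Pdap1-deficient mice. With LPS-BAFF-TGFβ it was 0.905 ± 0.00900 and 0.892 ± 0.000896, with no overlap between genotypes, and the exact two-sided permutation p was 0.1, the smallest that 3 against 3 mice allow. Adjusted over 30 such measures it was 0.6. Evenness was not corrected for depth, which differed between cultures. *Ighv* counts with LPS-BAFF-TGFβ were 26376, 1356 and 2128 in control and 1296, 1065 and 1359 in Pdap1-deficient mice 1 to 3. The highest evenness, 0.915, was that of the deep library, and the part of depth was not tested. *Igkv* evenness was 0.893 ± 0.00277 and 0.886 ± 0.00877 with LPS-IL-4 (exact p = 0.4), and 0.896 ± 0.00434 and 0.890 ± 0.00518 with LPS-BAFF-TGFβ (exact p = 0.2). Between stimulations it moved by 0.000947 for *Ighv* and 0.00329 for *Igkv* within mice, less than the SD of the differences, and an exact sign-flip test over the 6 mice gave p = 0.719 and 0.250. When pseudogenes and low segments were included, the *Igkv* difference between stimulations was 0.0138 (exact p = 0.0313), so that value depends on the segments counted.

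Segments of one family share sequence and often position. The *Ighv1* family, with 42 members, held between 55.5% and 59.5% of *Ighv* usage in every library. Of 23 shares tested, 17 families with at least 3 members and 3 equal groups of members by distance from the J segments at each of both loci, none passed an adjusted p of 0.05 in any comparison. Unadjusted, 2 families reached the smallest p of the stimulation test, 0.0313 (exact sign-flip test over 6 mice, adjusted p = 0.313). *Ighv14* had a mean of 2.2% of *Ighv* usage in LPS-IL-4 cultures, against 2.98% in LPS-BAFF-TGFβ cultures, and *Igkv14* means of 5.37% and 6.69% of *Igkv* usage, each with a higher share in 6 of 6 mice. *Igkv1* had means of 18.6% and 16.6%, with a lower share in 5 of 6 mice.

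*Igkv1* was also compared between genotypes. Its share with LPS-IL-4 was 16.8%, 16.8% and 17.8% in control mice 1 to 3 and 18.9%, 23.1% and 18.4% in Pdap1-deficient mice 1 to 3. In LPS-BAFF-TGFβ the share was 16.7%, 13.2% and 13.2% against 18%, 20.4% and 18.4%. The highest value of both was that of Pdap1-deficient mouse 2. The genotypes did not overlap in either stimulation, which gives the smallest exact p of 0.1, or 0.545 and 0.6 adjusted over the 30 measures. The values of the other Pdap1-deficient mice were also above all control values. *Igkv14* held 5.99% ± 0.232 in control and 4.76% ± 0.0692 (SD, n = 3) in Pdap1-deficient mice with LPS-IL-4, again without overlap (exact p = 0.1, adjusted p = 0.545), and with LPS-BAFF-TGFβ 6.97% ± 0.973 and 6.42% ± 0.681. The genotypes also did not overlap in 5 further shares, given here as means, each with an exact p of 0.1. With LPS-IL-4 these were *Ighv8* (4.55% in control and 3.59% in Pdap1-deficient mice) and *Igkv12* (6.66% and 6.24%). With LPS-BAFF-TGFβ they were *Ighv3* (5.36% and 7.06%), *Igkv6* (11.1% and 9.08%) and the J-proximal group of *Igkv* (30.4% and 27.5%). By place in the locus, the J-proximal, middle and J-distal groups held between 27.6% and 32.7%, between 34.0% and 39.9%, and between 31.2% and 35.9% of *Ighv* usage. The same groups held between 25.9% and 31.2%, between 18% and 24.0%, and between 46.1% and 53.1% of *Igkv* usage. The 30 *Igkv* members on the plus strand, in an orientation opposite to the other 48, held between 37.0% and 46.0%.

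Both cultures of a mouse began from one spleen, and usage was compared between them to see how far it is particular to the mouse. The dissimilarity (Bray-Curtis, the share of usage that would have to move) between cultures of the same mouse was on average 11.7% for *Ighv* and 12.3% for *Igkv*. Between cultures of different mice of the same genotype it was 12.8% and 13.2%. Counting alone at these depths gives an expected dissimilarity of 9.04% and 8.64% for the same-mouse pairs. In an exact one-sided test over the 36 ways of pairing cultures within genotypes, the true pairing was the most alike for both chains, p = 0.0278, the smallest possible. The margins were small, and the own culture was the nearest of the 3 of its genotype for only 2 of 6 mice in *Ighv* and 3 of 6 in *Igkv*.

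The level of single segments, in CPM, moves with the V total of a library as well as with usage. Of 153 members that passed the filter on low counts, the same control mouse was highest in both cultures for 23, or 15.0%, where 29.6% of all genes tested did so. The same Pdap1-deficient mouse was highest in both for 64, or 41.8%, against 50.9% of all genes. In 56 of these 64 that mouse was Pdap1-deficient mouse 2. Control mouse 1 was highest for 131 of 153 members with LPS-BAFF-TGFβ and for 17 with LPS-IL-4, in which control mouse 3 was highest for 116.

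Among members with a median share over 0.2%, those with the largest ratio of highest to median library were small. *Ighv12-3* reached 1.31% in the LPS-BAFF-TGFβ culture of control mouse 3 against a median of 0.311%, *Ighv5-2* reached 0.836% in that of Pdap1-deficient mouse 3, and *Ighv4-1* reached 1.33% in that of Pdap1-deficient mouse 2. In κ, *Igkv6-14* reached 1.03% in control mouse 2, *Igkv4-92* 1.23% in Pdap1-deficient mouse 1 and *Igkv4-79* 0.852% in control mouse 2, all with LPS-BAFF-TGFβ. The high value of *Ighv4-1* came with the second highest, 0.926%, in the other culture of the same mouse. For *Igkv6-14* the other culture of that mouse had 0.170%. The high values rest on few counts, from 11 for *Ighv5-2* to 27 for *Ighv12-3*. *Igkv6-14* had 14 counts there and 5 in the other culture of that mouse. The shares of these segments are therefore imprecise.

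Segments known from B-1 cells are printed next and were followed from mouse to mouse. *Ighv11-2*, *Ighv12-3*, *Igkv14-126* and *Igkv4-91* lie at chr12:114048241-114048330 (minus strand), chr12:114366521-114366610 (minus), chr6:67896553-67896642 (plus) and chr6:68768555-68768644 (minus). *Ighv11-2* and *Ighv12-3* had no closer V gene than 75.7% and 78.8% identity.
Ighv11-2: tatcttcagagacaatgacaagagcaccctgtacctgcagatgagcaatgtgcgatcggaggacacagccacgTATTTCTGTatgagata
Ighv12-3: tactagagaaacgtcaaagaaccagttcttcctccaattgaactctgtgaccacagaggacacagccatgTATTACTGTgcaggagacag
Igkv14-126: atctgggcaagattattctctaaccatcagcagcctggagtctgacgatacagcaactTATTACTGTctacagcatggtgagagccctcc
Igkv4-91: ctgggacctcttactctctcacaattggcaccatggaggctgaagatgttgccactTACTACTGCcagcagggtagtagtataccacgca

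*Igkv14-126* made up 1.22%, 0.692% and 1.79% of *Igkv* usage in control mice 1 to 3 with LPS-IL-4 and 0.953%, 0.497% and 1.89% with LPS-BAFF-TGFβ. In Pdap1-deficient mice 1 to 3 it made up 0.402%, 0.846% and 0.530%, and 0.529%, 1.23% and 0.608%. Control mouse 3 was highest and Pdap1-deficient mouse 2 was highest of its genotype in both cultures. *Ighv11-2* was 0.312%, 0.0454% and 0.902% of *Ighv* usage in control mice with LPS-IL-4, and 0.0153%, 0.215% and 0.0533% in Pdap1-deficient mice. These shares rest on 15, 2 and 57 counts and on 1, 24 and 3 counts. With LPS-BAFF-TGFβ it had 133, 2 and 7 counts in control and 0, 4 and 3 in Pdap1-deficient mice. *Ighv12-3* was 0.641% and 1.31% in the cultures of control mouse 3 and was listed at 0 with LPS-BAFF-TGFβ in control mouse 2. *Igkv4-91* differed less, between 0.907% and 1.69% in all libraries. None of the 4 passed an adjusted p of 0.05 by edgeR between genotypes or, with no block, between stimulations. Between genotypes with LPS-BAFF-TGFβ only 2 of the 4 passed the filter and were tested. With the mouse as a block, *Igkv4-91* was lower in LPS-BAFF-TGFβ cultures (log2 fold change -0.59 ± 0.19, SE; edgeR adjusted p = 0.0358). The 4 B-1 marker genes *Cd5*, *Spn*, *Bhlhe41* and *Zbtb32* were also summed. With LPS-IL-4 the sums were 211, 206 and 226 CPM in control and 246, 241 and 239 CPM in Pdap1-deficient mice 1 to 3. Pdap1-deficient mouse 1 was thus highest there, where its *Igkv14-126* and *Ighv11-2* shares were the lowest. With LPS-BAFF-TGFβ the sums were between 142 and 170 CPM in control and between 125 and 139 CPM in Pdap1-deficient mice. Of the 4 genes, however, edgeR called 3 higher and 1 lower with LPS-BAFF-TGFβ, against 13.9% and 12.8% of all genes. The lower sums there therefore do not hold for each gene.

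**Figure D2:**
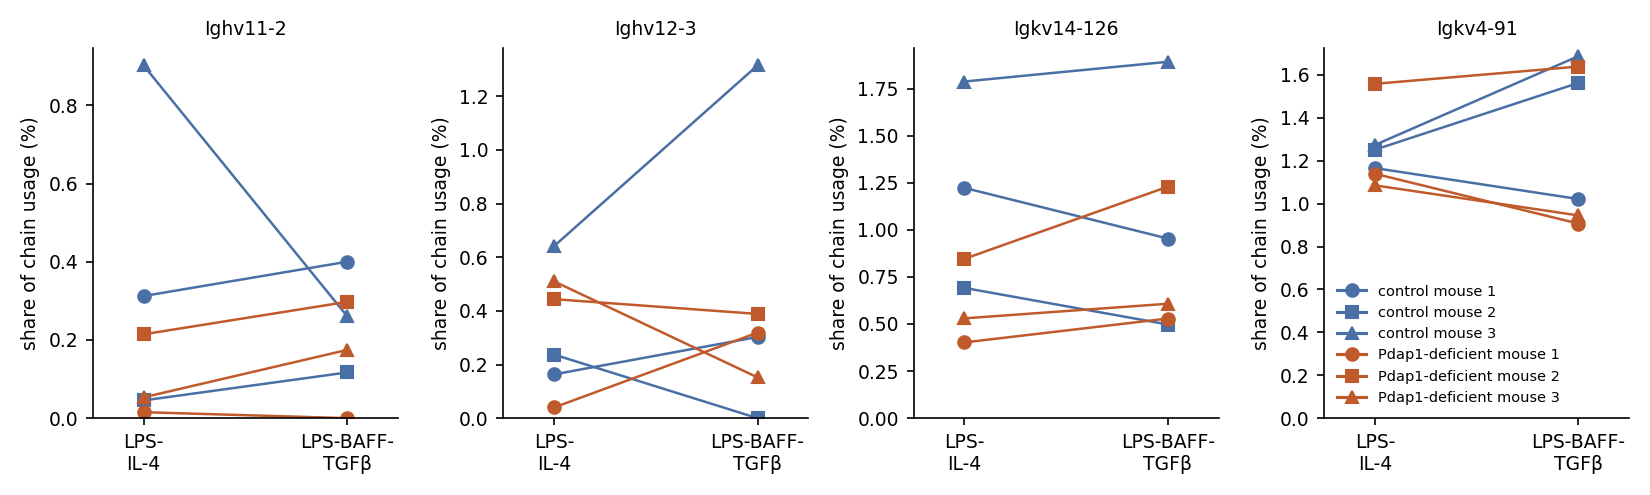
Share of chain usage (%) of *Ighv11-2*, *Ighv12-3*, *Igkv14-126* and *Igkv4-91* in each culture, with the pair of cultures of a mouse joined by a line (blue control, orange Pdap1-deficient). Control mouse 3 is highest for *Igkv14-126* in both cultures, at 1.79% and 1.89%.

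*Jchain*, which links secreted IgM and IgA, and *Igha*, the constant region of IgA, also differed between mice. *Jchain* was 23.6, 10.8 and 24.4 CPM in control mice 1 to 3 and 6.38, 47.6 and 23.4 CPM in Pdap1-deficient mice 1 to 3 with LPS-IL-4. *Igha* was 11.5, 1.17 and 9.02 CPM and 0.156, 48.8 and 5.39 CPM in the same order. Pdap1-deficient mouse 2 had the highest level of both genes, and Pdap1-deficient mouse 1 the lowest. The 6 plasma cell markers ranked the mice otherwise by their sum, of which *Jchain* was only a small part. With LPS-IL-4 they summed to 680, 630 and 678 CPM in control and 774, 752 and 900 CPM in Pdap1-deficient mice 1 to 3. The part of antibody-secreting or B-1 cells in these values was not tested.

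The share of all counts in V genes was compared to see how much V RNA each culture held. It was 0.0661%, 0.0631% and 0.0894% in control mice 1 to 3 and 0.0819%, 0.120% and 0.0962% in Pdap1-deficient mice 1 to 3 with LPS-IL-4. With LPS-BAFF-TGFβ it was 0.0893%, 0.0389% and 0.0559%, and 0.0425%, 0.0551% and 0.0392%. Control mouse 1 was the only mouse with a higher value in LPS-BAFF-TGFβ, and that culture is the deep library. In it *Mzb1*, a chaperone of antibody secretion, was also 21.3 CPM against at most 8.32 CPM elsewhere. The 6 plasma cell markers, *Mzb1* among them, summed to 471 CPM in the deep library and to between 480 and 531 CPM in the other LPS-BAFF-TGFβ cultures. *Mzb1* was a small part of these sums, so they could hardly follow its level. The part of antibody-secreting cells was not tested. Averaged over mice the share was 0.0861% in the LPS-IL-4 cultures, against 0.0535% in the LPS-BAFF-TGFβ cultures, lower in 5 of 6 mice, which did not pass an exact sign-flip test (p = 0.0625, adjusted p = 0.313). Between genotypes it was 0.0728% ± 0.0144 in control and 0.0994% ± 0.0194 (SD, n = 3) in Pdap1-deficient mice with LPS-IL-4 (exact p = 0.2), and 0.0614% ± 0.0256 and 0.0456% ± 0.00838 with LPS-BAFF-TGFβ (exact p = 0.5).

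**Figure D3:**
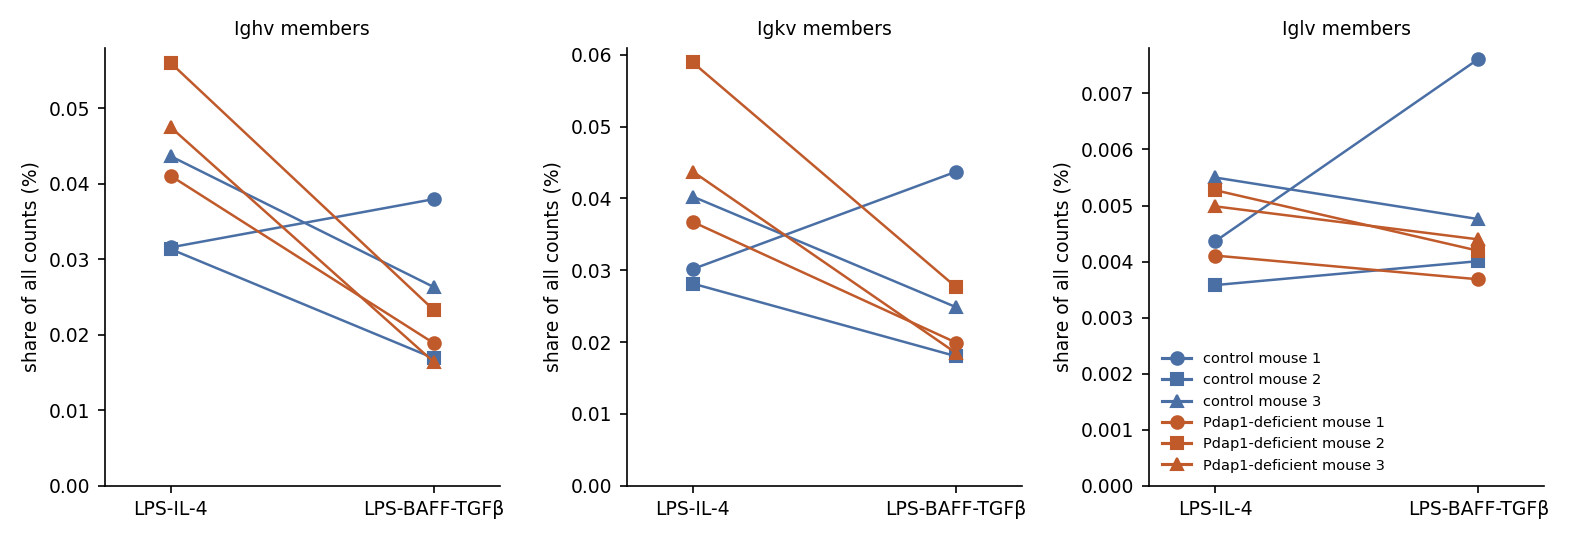
Share of all counts (%) in *Ighv*, *Igkv* and *Iglv* members in each library, with the pair of cultures of a mouse joined by a line (blue control, orange Pdap1-deficient). *Ighv* and *Igkv* shares fall in 5 of 6 mice and rise in control mouse 1.

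Single V genes were then tested between stimulations over all genes with edgeR's quasi-likelihood test. Only 9 of the V genes tested had a fitted change above 0 with LPS-BAFF-TGFβ. Of the 162 members, 153 passed the filter, 51 were called lower and 1 higher (Benjamini-Hochberg adjusted p under 0.05). Of all 15794 genes tested, 12.8% were called lower and 13.9% higher. By chain, 35 of 78 *Ighv* and 16 of 72 *Igkv* members were called lower, and *Iglv3* was the one called higher. The median log2 fold change was -0.77 for *Ighv*, -0.53 for *Igkv* and -0.17 for *Iglv*, where that of all genes was 0.02.

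All 41 *Ighv1* members tested had a fitted log2 fold change below 0, and 17 were called lower. All 3 tested *Ighv3* members and all 3 tested *Ighv8* members were called lower, and so were 6 of 8 *Ighv5* members. Among κ families 6 of 17 *Igkv4* and 3 of 8 *Igkv6* members were called lower, and none of 6 *Igkv1*, 6 *Igkv3* or 3 *Igkv14* members. No *Ighv14* member of 4 was called without the block, and *Ighv14-3* was called lower with the mouse as a block (-0.80 ± 0.27, SE; edgeR adjusted p = 0.0423).

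*Ighv3-6* had the smallest adjusted p. Its level was 11.5, 14.6 and 17.5 CPM in control and 21.1, 25.7 and 26.3 CPM in Pdap1-deficient mice 1 to 3 with LPS-IL-4. After LPS-BAFF-TGFβ the level was 11, 8.27 and 11.9 CPM, and 12.6, 10.3 and 8.44 CPM. Each of the 6 mice was lower with LPS-BAFF-TGFβ, control mouse 1 by the least, and the log2 fold change was -0.85 ± 0.14 (SE; edgeR adjusted p = 0.000482). *Ighv9-3* changed by -0.95 ± 0.17 (edgeR adjusted p = 0.000869) and *Igkv4-57* by -1.17 ± 0.24 (edgeR adjusted p = 0.00240). *Ighv1-80* changed by -0.76 ± 0.16 and *Ighv5-17* by -0.96 ± 0.21. These 5 were the members with the smallest adjusted p among those called lower.

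With the mouse as a block, which uses the shared spleen, 63 members were called lower and 1 higher, against 14.9% of all genes called lower. The deep library weighed on these counts. Without it 91 members were called lower, against 14.6% of all genes. In control mice alone, with the mouse as a block, none was called lower, against 6.38% of all genes, and *Iglv3* was called higher. There 5 members of 142 had an unadjusted p under 0.05, against 27.3% of all genes. In Pdap1-deficient mice alone 92 of 130 members were called lower, against 13.5% of all genes. The median log2 fold change was -0.24 in control and -1.14 in Pdap1-deficient mice.

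Whether the stimulation difference differed between genotypes was tested as an interaction term. No member passed (0 of 153), nor did any of the 15794 genes (0.0%), and DESeq2 called 0 members. An unadjusted p under 0.05 was found for 45 members, against 4.78% of all genes, and for 17 members without the deep library, against 6.78% of all genes. The median member term was -0.99 on the log2 scale and -0.48 without the deep library. A difference between genotypes in the fall of V RNA was therefore not shown. By direction, 14 of the 153 members were lower in all 6 mice, against 15.2% of all genes, and 1 member, *Iglv3*, was higher in all 6, against 15.3% of all genes.

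**Figure D4:**
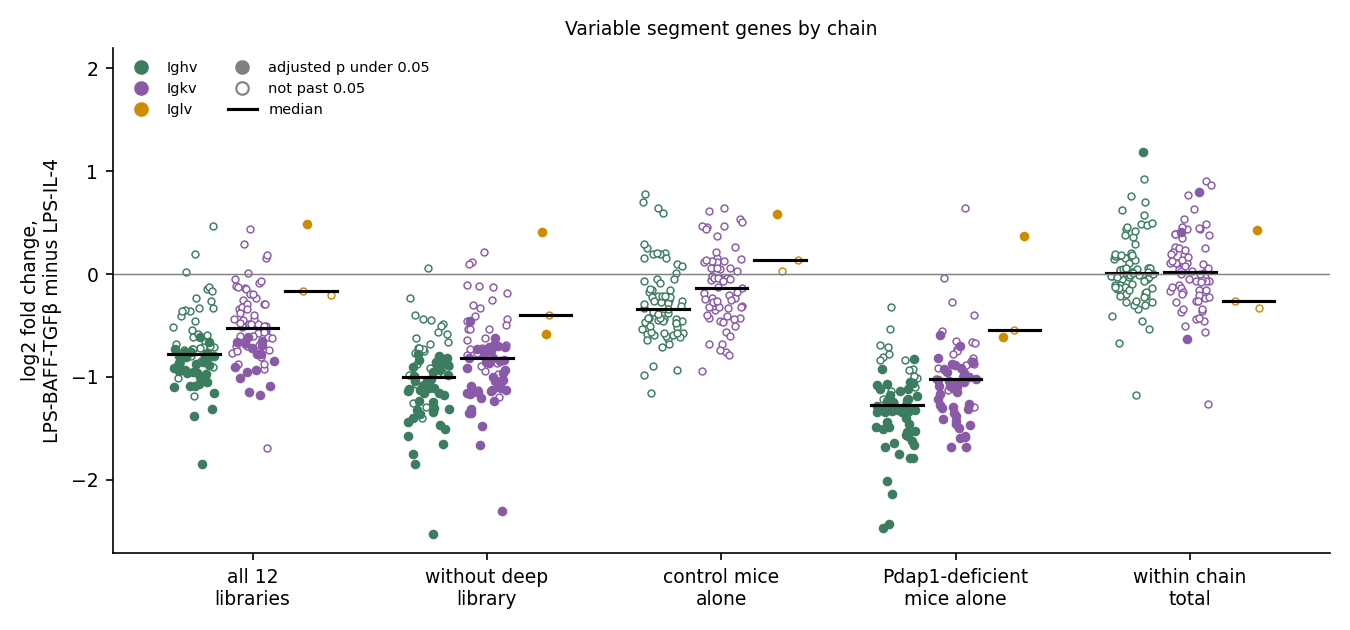
Log2 fold change of each tested V gene, LPS-BAFF-TGFβ minus LPS-IL-4, by chain (colour) in 5 fits: all 12 libraries, without the deep library, mice of each genotype alone with the mouse as a block, and all 12 libraries with the chain total as offset. Filled marks passed an adjusted p of 0.05 and black lines are medians, which lie at -0.77 for *Ighv* and -0.53 for *Igkv* over all 12 libraries and near 0 once the chain total is set as the offset.

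To ask which segments moved relative to their own chain, the total of the chain was set as an offset. Then 5 members were called, where 26.3% of all genes, which kept their library totals as offsets, were called. *Ighv14-4* (log2 fold change 1.18 ± 0.28, edgeR adjusted p = 0.00648), *Igkv14-111*, *Igkv3-7* and *Iglv3* were higher and *Igkv4-57* (-0.63 ± 0.19) was lower with LPS-BAFF-TGFβ. With the mouse as a block as well, 3 were called higher (*Ighv14-4*, *Igkv14-111* and *Iglv3*) and 4 lower (*Igkv4-57*, *Igkv1-117*, *Igkv12-44* and *Iglv1*), against 29.7% of all genes called, and *Igkv3-7* no longer passed (edgeR adjusted p = 0.0870). These were named after their values were seen. *Igkv14-111* made up 3.87%, 4.04% and 3.3% of *Igkv* usage in control and 3.63%, 2.87% and 3.49% in Pdap1-deficient mice 1 to 3 with LPS-IL-4. With LPS-BAFF-TGFβ it made up 5.10%, 4.63% and 4.63%, and 4.04%, 4.07% and 5.52%, so it was higher in 6 of 6 mice and the stimulations did not overlap, by a narrow margin.

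Of the λ segments, *Iglv3* alone was called between stimulations in the fit of all 12 libraries without the chain total as offset. The share of all counts in the 3 *Iglv* genes had a mean of 0.00463% in LPS-IL-4 cultures, against 0.00478% in LPS-BAFF-TGFβ cultures, and was higher in 2 of 6 mice (exact sign-flip p = 0.938). *Iglv3* was 17.0, 16.2 and 15.6 CPM in control and 13.5, 17.9 and 17.3 CPM in Pdap1-deficient mice 1 to 3 with LPS-IL-4. With LPS-BAFF-TGFβ it was 28.7, 24.3 and 20.6 CPM, and 18.9, 22.5 and 21.5 CPM. All 6 mice were higher with LPS-BAFF-TGFβ, no value of which fell below any with LPS-IL-4, and the log2 fold change was 0.48 ± 0.11 (SE; edgeR adjusted p = 0.00454). *Iglv1* and *Iglv2* did not pass, with fitted log2 values of -0.21 ± 0.30 and -0.17 ± 0.27 (SE). *Iglv1* was 46.5 CPM in the deep library and between 12 and 20.1 CPM in the other LPS-BAFF-TGFβ cultures. The share of *Iglv3* among the 3 λ segments was higher with LPS-BAFF-TGFβ in 5 of 6 mice and lower in control mouse 1, at 39.7% and 34.4%.

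The ratio of heavy to light chain usage ran from 0.89 to 1.03 with LPS-IL-4, and after LPS-BAFF-TGFβ it ran from 0.732 to 0.9, lower in each mouse. The ratio of κ to λ usage was lower with LPS-BAFF-TGFβ in 6 of 6 mice. It was 7.17, 8.16 and 7.60 in control and 9.25, 11.5 and 9.08 in Pdap1-deficient mice 1 to 3 with LPS-IL-4. It was 5.97, 4.68 and 5.43, and 5.59, 6.80 and 4.34 with LPS-BAFF-TGFβ, so the stimulations did not overlap. The mean within-mouse change was -0.68 on the log2 scale, with an SD of 0.28 between mice, and the exact sign-flip test gave p = 0.0313, the smallest that 6 mice allow, or 0.313 adjusted over 30 measures. Between genotypes with LPS-IL-4 the log2 ratio was 2.93 ± 0.0935 in control and 3.3 ± 0.189 in Pdap1-deficient mice, without overlap (exact p = 0.1, adjusted p = 0.545). With LPS-BAFF-TGFβ it was 2.41 ± 0.177 and 2.46 ± 0.325 (exact p = 0.9).

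**Figure D5:**
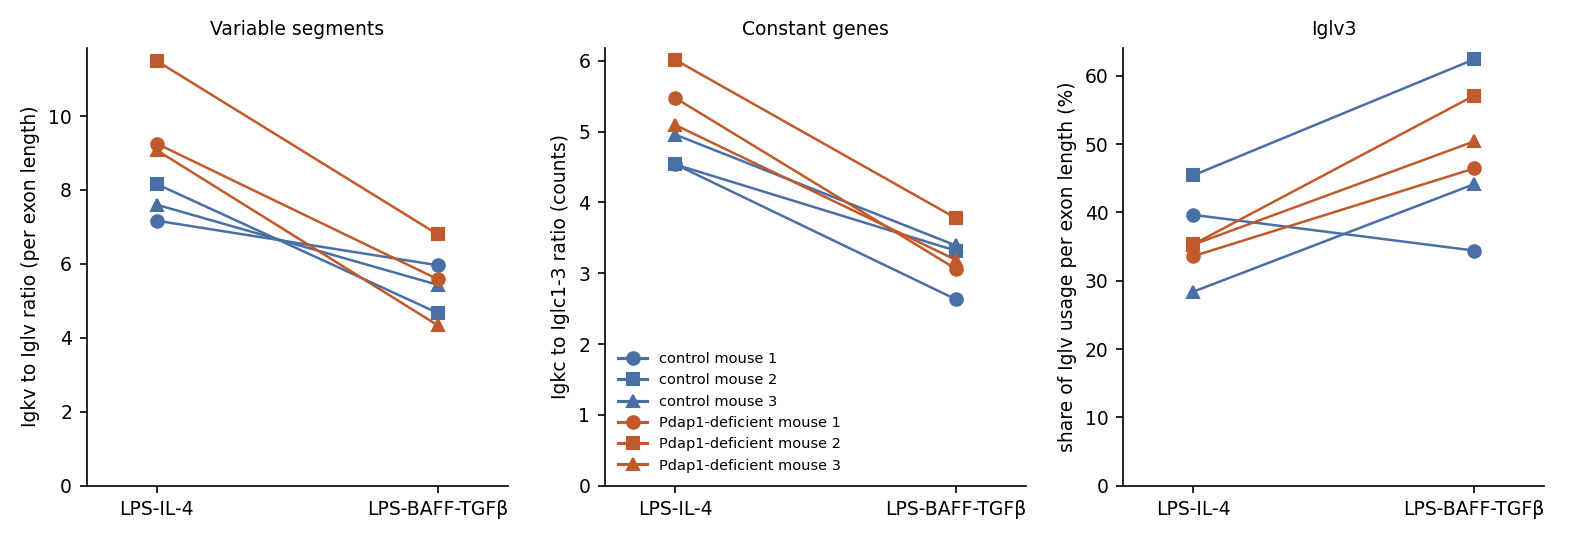
Ratio of *Igkv* to *Iglv* usage, ratio of *Igkc* to *Iglc1*, *Iglc2* and *Iglc3* counts, and *Iglv3* share of *Iglv* usage (%), with the pair of cultures of a mouse joined by a line (blue control, orange Pdap1-deficient). Both ratios fall in all 6 mice.

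The light chain constant genes, which are counted apart from the V genes, also had a lower κ to λ ratio in 6 of 6 mice. *Igkc* to the sum of *Iglc1*, *Iglc2* and *Iglc3* was 4.68 ± 0.243 and 5.53 ± 0.462 (SD, n = 3) in control and Pdap1-deficient mice with LPS-IL-4 and 3.12 ± 0.419 and 3.34 ± 0.382 with LPS-BAFF-TGFβ. *Igkc* fell with LPS-BAFF-TGFβ (log2 fold change -0.39 ± 0.12), and *Iglc2* rose by 0.51 ± 0.14 and *Iglc3* by 1.04 ± 0.23, while *Iglc1* did not pass (-0.04 ± 0.15), all by edgeR's quasi-likelihood test. *Iglc2* and *Iglc3* are near-identical copies, so their separate values are uncertain.

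Genotypes were compared within each stimulation to ask whether Pdap1 deficiency changed V gene RNA. With LPS-IL-4, 139 of the 152 members that passed the filter had a fitted log2 fold change above 0, with a median of 0.38 against 0.02 for all genes, and 1 was called higher, *Ighv3-6* (0.73 ± 0.17, SE; edgeR adjusted p = 0.0356). Of all genes 2.79% were called higher. All 3 Pdap1-deficient mice were above all 3 control mice in 36 of 153 members, or 23.5%, against 15.4% of all genes, and the reverse was found in 0 members, against 15.6% of all genes. Without Pdap1-deficient mouse 2, whose libraries held the myeloid markers, 2 members were called higher, against 5.09% of all genes, and the median was 0.22, and the part of those cells was not tested. The call of *Ighv3-6* was lost without any one of control mice 1, 2 and 3 (adjusted p = 0.147, 0.160 and 0.0791) or Pdap1-deficient mouse 3 (adjusted p = 0.123), by edgeR in each case.

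With LPS-BAFF-TGFβ no member of 115 passed, by edgeR or DESeq2, against 0.462% of all genes, and 13 had an unadjusted p under 0.05, against 10.6% of all genes. The median log2 fold change of the members was -0.53 and was -0.06 without control mouse 1. Pdap1-deficient mice were below all control mice in 11 of 153 members, against 8.58% of all genes, and above them in 0, against 9.28%. The spread between mice was wider for V genes than for all genes tested, which were not matched for level. The median member level was 2.53 CPM in *Ighv* and 2.57 CPM in *Igkv*, and the part of low counts in the spread was not tested. The median biological coefficient of variation was 23.0% for members and 17.2% for all genes with LPS-IL-4, and 34.8% and 20.9% with LPS-BAFF-TGFβ.

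Other genes of the antibody loci moved beside the V genes. Of 12 constant genes tested between stimulations 5 were lower and 4 higher with LPS-BAFF-TGFβ. *Ighm*, the μ constant region, fell by 0.84 on the log2 scale and *Ighd*, the δ constant region, by 1.45. *Ighg1* changed by -6.36 and *Ighg2b* by 5.66, the isotypes that the cytokines induce. Of 11 joining segments tested, 5 were lower and 0 higher. In the genotype comparison with LPS-IL-4, *Ighd* was higher in Pdap1-deficient mice (0.64 ± 0.10), and the joining segments *Igkj4* (0.58 ± 0.13) and *Igkj5* (0.45 ± 0.11) were also higher. *Ighg1* (-1.29 ± 0.15) and *Ighe* (-2.31 ± 0.28) were lower (edgeR, Benjamini-Hochberg adjustment). No constant or joining gene passed with LPS-BAFF-TGFβ between genotypes.

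Genes for making or regulating V transcripts were also counted. The recombination genes *Rag1*, *Rag2*, *Dntt*, *Vpreb1*, *Vpreb2* and *Igll1*, active in developing B cells, summed to between 0 and 1.95 CPM, and none passed the filter. Of 6 factors that bind V promoters or the antibody enhancers, *Pou2f2*, *Spib* and *Ebf1* were higher with LPS-BAFF-TGFβ and *Pou2af1*, the coactivator of octamer binding factors, was lower (-0.80 ± 0.09). None of the 6 passed between genotypes. Of 9 genes of antibody assembly and secretion, 5 were lower with LPS-BAFF-TGFβ, among them *Xbp1* (-1.58 ± 0.09) and *Prdm1* (-1.89 ± 0.13). *Prdm1*, the regulator of plasma cell formation, was between 50.6 and 71.2 CPM in Pdap1-deficient and between 14.1 and 19.98 CPM in control mice with LPS-IL-4 (1.82 ± 0.16), and *Ell2*, an elongation factor for secreted antibody RNA, was also higher (0.48 ± 0.09). The part of these genes in the V levels was not tested.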

How the data were processed

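RNA of 12 cultures, 3 mice per genotype and 2 stimulations per mouse, was sequenced. Per the submitters' processing notes, reads were trimmed with Trim Galore 0.6.1, aligned to GRCm38 with STAR 2.6 and counted with HTSeq 0.9.1. The authors deposited a table of raw counts per gene, used here, and a normalized table, not used here. The annotation release and strand setting are not given in the sources used here, and the labels (CH12 line) differ from the methods (splenic B cells). Gene names, biotypes and exon lengths were taken from GENCODE M21.

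The members, gene lists and tests were chosen with earlier results of these data known. Genes were tested on all counts with edgeR 4.0.16 (quasi-likelihood test, TMM scaling, filterByExpr, Benjamini-Hochberg adjusted p under 0.05), within each stimulation for genotype and over all 12 libraries for stimulation and interaction. The code was tested on simulated data. DESeq2 1.42.0 was an alternative. Shares, evenness and ratios used counts divided by exon length and exact tests over mice (permutation between genotypes, sign flips within mice), adjusted over 30 measures. Cultures are paired because the series' design gives each mouse both stimulations. Equal numbers in control and Pdap1-deficient mice are only names. Total counts per library, from 4579793 to 69500640, set the precision. Named were the 5 largest *Ighv* and *Igkv* segments, every *Iglv* segment, called members (the 5 with the smallest adjusted p where over 10), the 3 per chain with the largest ratio of highest to median share among those over 0.2%, and 4 B-1 segments. The allele that carries Cre is not reported here.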

Additional observations from a re-analysis of the deposited data

How the results depend on the processing

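The number of V genes called between genotypes with LPS-IL-4, 1, was 5 with DESeq2, 9 with no filter, 3 with the replicate block (between genotypes the numbers are only names), 0 with the chain total as offset, 0 in a fit of all 12 libraries, and between 0 and 8 when 1 mouse was left out. The number called between stimulations, 52, was 64 with the replicate block, which pairs the cultures of a mouse, and 54 with DESeq2. It was 5 with the chain total as offset (7 with the block), 92 without the deep library (114 with the block), 1 in control and 93 in Pdap1-deficient mice alone, and between 21 (without control mouse 3) and 86 (without control mouse 1) when 1 mouse was left out, or 30 (without Pdap1-deficient mouse 3) and 112 (without control mouse 1) with the block. *Ighv1-80* changed from -0.76 to 0.061 with the chain total as offset, and to 0.059 with the block too, since the chain fell as a whole. The block joined with another change, the fits of control or Pdap1-deficient mice alone and the genotype by stimulation fit without the deep library were chosen after seeing the data. The *Igkv* evenness difference between stimulations was 0.0138 with pseudogenes and low segments (exact p = 0.0313). The κ to λ log2 change was between -0.77 and -0.61 without 1 mouse, where 5 mice allow no exact p under 0.0625. The margin by which cultures of a mouse were more alike was between -1.34 and -0.958 percentage points for *Ighv* and between -1.20 and -0.544 for *Igkv* without 1 mouse (exact p = 0.0833, the smallest possible), -0.544 for *Igkv* without the 5 largest segments (exact p = 0.111), and 0.0144 and 0.00869 as a Spearman difference (exact p = 0.0833). For shares and ratios, leaving out the deep library is leaving out control mouse 1. Between 2523 and 19077 V gene counts in the other libraries limit what small segments can show.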
